A study of Mus musculus with 8 samples.

Results

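The genes described here encode the proteins of the mitochondrial ribosome, the particle that translates the few messages of mitochondrial DNA. They were taken as every gene whose symbol in the array's annotation starts with Mrpl, for the large subunit, or Mrps, for the small subunit, followed by a digit. This gave 76 genes, 47 of the large and 29 of the small subunit, which were read by 110 of the 25697 probes of an Illumina mouse bead array. Liver RNA of 8 C57Bl6/Ntac mice was measured, from 4 controls (Mfn1 Wildtype in the labels) and 4 mice without hepatic Mfn1 (Mfn1 LKO). All mice had eaten high fat food for 8 weeks and were fasted for 6 hours before the liver was taken. The titles of both groups name AlbCre, a Cre recombinase driven by the albumin promoter that acts in hepatocytes. Which other cells of the liver kept Mfn1 cannot be read from RNA of whole liver. Whether the control mice carried Cre is not stated in the sources used here, and an effect of Cre itself cannot be told apart from that of the deletion if they did not.

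All proteins of the mitochondrial ribosome are encoded in the nucleus, made in the cytosol and imported into the matrix, where they assemble with ribosomal RNA transcribed from mitochondrial DNA. The finished ribosome makes core subunits of respiratory complexes I, III and IV and of ATP synthase, and liver, with its dense mitochondria, depends on this supply. Many of the proteins descend from bacterial ribosomal proteins, and others were added in the mitochondrial lineage. Mfn1, the gene deleted here, encodes a GTPase that joins the outer membranes of neighbouring mitochondria.

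The log2 signal of Mfn1 lay between 8.70 and 8.81 in controls and between 7.32 and 7.53 in Mfn1 LKO livers, as the labels have it (difference -1.33, SE 0.051, limma adjusted p = 8.36e-06). Ttr and Apoa1, which encode plasma proteins made by hepatocytes, were near 14.0 in both groups. The probe of Alb gave only 6.83 in controls and 6.86 in Mfn1 LKO livers, close to the lowest signal of 6.38. Of the other hepatocyte markers measured, Hnf4a gave a log2 difference of 0.099 (SE 0.062) and Cps1 one of -0.21 (SE 0.21). The SD of Cps1 was 0.51 in Mfn1 LKO livers against 0.086 in controls. The arrays had median intensities between 96.4 and 103.9, and correlated between 0.985 and 0.995 over the genes tested. The p-values measure the spread between these 8 mice, whose number limits the precision.

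Of the 76 genes, 70 had a probe whose mean over all 8 arrays exceeded the median of all probes. They comprised 43 genes of the large and 27 of the small subunit. The mean log2 signal of these probes ran from 6.78 for Mrpl57 to 11.27 for Mrps24, with a median of 9.09. Signals of different probes depend on the probe and do not rank the transcripts. The 6 genes without such a probe were Mrpl19, Mrpl21, Mrpl32, Mrpl45, Mrps14 and Mrps36. Their signals lay between 6.52 and 6.59, and their log2 differences between -0.071 for Mrps14 and 0.049 for Mrpl45, which do not bound a change in transcript at such signals.

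The transcripts of the mitochondrial ribosome were close to the same level in both groups. None of the 70 genes passed an adjusted p of 0.05 over all genes tested with limma, where the background was 0.0113% (1 of 8884 genes, Mfn1). The lowest adjusted p was 0.187, that of Mrpl20. An unadjusted p under 0.05 was reached by 6 genes, 8.57% of the 70, against a background of 10.8%. Of these, 5 were on the higher side, where the background was 5.67%, and 1 on the lower side, where it was 5.11%. In 4 genes, all on the higher side, the groups did not overlap, which is 5.71% against a background of 6.07% in either direction, 2.9% on the higher and 3.16% on the lower side. With these settings the shares without regard to direction were below those of all genes. The count on the higher side was 8 without control 641, and the count on the lower side was 0 without control 658, control 661 or Mfn1 LKO mouse 651, 2 without control 663 and 6 without Mfn1 LKO mouse 637. Without mouse 637, 15.7% of the 70 genes and 12.5% of all genes had an unadjusted p under 0.05. The same shares were 12.9% and 10.5% without control 641, 8.57% and 12.1% without control 658, and 5.71% and 6.98% without control 661. They were 8.57% and 8.76% without control 663, and 11.4% and 9.16% without mouse 638. Without mouse 651 they were 7.14% and 10.3%, and without mouse 701 they were 7.14% and 8.4%. With no filter on dim probes the counts were 10 higher and 3 lower. These 13 of 76 genes, 12 of them among the 70, are 17.1%, above the 8.33% of all genes in that setting. The log2 fold change of Mrpl42, for example, is the same there, but its SE was 0.035 against 0.041. With the filter kept and arrays set to a common median, the shares were 7.14% and 5.01%. The order of these shares thus depends on the filter, the scaling and the mice included.

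The differences were small as well as few. The median log2 fold change of the 70 genes, Mfn1 LKO over control, was 0.0082, against -0.0090 over all genes. Without Mfn1 LKO mouse 637 it was -0.010, beside -0.0095 over all genes, and without mouse 651 it was 0.028, so that its sign rests on 1 mouse. Their quartiles were -0.034 and 0.054, and the whole range from -0.16 for Mrpl9 to 0.41 for Mrpl20. The median SE was 0.055. In 60 of the 70 genes (85.7%) the 95% interval of the log2 fold change lay within 0.25 of 0, and in 68 within 0.5, while 76.1% of all genes had an interval within 0.25. Mrpl20 and Mrpl52 were the exceptions to the wider bound. In bulk liver, fewer cells of a type and less RNA per cell cannot be told apart, and the deposited values carry the array's background, so that fold changes of dim genes are smaller than the change in transcript.

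**Figure D1:**
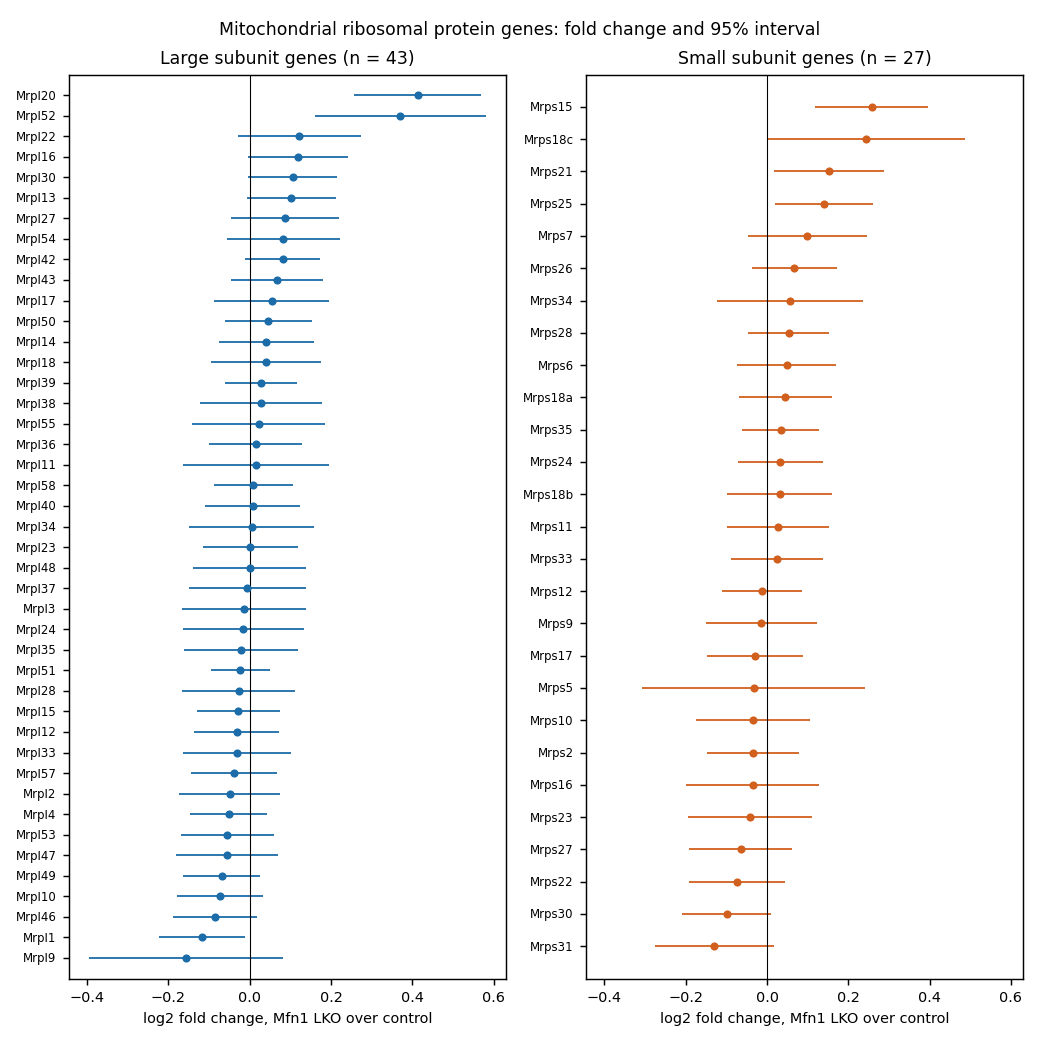
Log2 fold changes, Mfn1 LKO over control (horizontal axis), of 43 large and 27 small subunit genes (vertical axis, sorted), with points for the estimate and bars for the 95% interval from limma (n = 4 mice per group). Most intervals include 0, and Mrpl20 (0.41) and Mrpl52 (0.37) stand farthest to the right.

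The 4 genes whose groups did not overlap were Mrpl20, Mrps15, Mrpl52 and Mrps25, and none passed over all genes. Their promoters are printed to show what the genes hold in common at their starts, from 250 bases before to 50 after each start as RefSeq gives it (GRCm38.p6), with capitals for a match to an ETS motif (CCGGAAG), an NRF1 motif (GCGCA and GCGC with any 1 base between) or a YY1 motif (AANATGGCG) on either strand. GABP, an ETS factor, NRF1 and YY1 are known regulators of nuclear genes for mitochondria.
Mrpl20 promoter, chr4:155802628-155802927, + strand: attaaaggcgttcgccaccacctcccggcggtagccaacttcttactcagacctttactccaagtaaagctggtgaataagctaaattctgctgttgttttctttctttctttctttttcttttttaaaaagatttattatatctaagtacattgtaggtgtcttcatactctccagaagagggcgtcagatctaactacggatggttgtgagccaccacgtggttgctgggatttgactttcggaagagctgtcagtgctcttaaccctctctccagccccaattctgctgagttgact
Mrps15 promoter, chr4:126046678-126046977, + strand: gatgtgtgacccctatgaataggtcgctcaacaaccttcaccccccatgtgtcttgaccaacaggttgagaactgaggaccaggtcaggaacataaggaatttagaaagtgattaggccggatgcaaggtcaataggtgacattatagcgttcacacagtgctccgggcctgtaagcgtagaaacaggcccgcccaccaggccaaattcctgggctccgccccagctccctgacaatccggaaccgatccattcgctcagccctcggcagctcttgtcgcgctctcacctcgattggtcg
Mrpl52 promoter, chr14:54426659-54426958, + strand: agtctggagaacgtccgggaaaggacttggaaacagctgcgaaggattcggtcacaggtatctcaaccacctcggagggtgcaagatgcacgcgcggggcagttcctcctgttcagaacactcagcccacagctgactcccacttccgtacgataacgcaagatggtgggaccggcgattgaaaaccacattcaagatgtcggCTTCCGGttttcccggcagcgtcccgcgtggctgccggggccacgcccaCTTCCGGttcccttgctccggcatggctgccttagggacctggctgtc
Mrps25 promoter, chr6:92183974-92184273, - strand: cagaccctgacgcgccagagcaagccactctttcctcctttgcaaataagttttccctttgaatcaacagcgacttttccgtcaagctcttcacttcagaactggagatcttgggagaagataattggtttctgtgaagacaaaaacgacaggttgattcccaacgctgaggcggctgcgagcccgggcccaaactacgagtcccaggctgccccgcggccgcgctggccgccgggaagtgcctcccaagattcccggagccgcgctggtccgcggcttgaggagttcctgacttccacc
Of the 4, Mrpl52 alone holds matches, 2 to the ETS motif. The windows of Mrpl20, Mrps15 and Mrps25 hold none of the 3 motifs in these letters, which says nothing about the factors themselves.

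Mrpl20 encodes the relative of bacterial L20, which in bacteria binds ribosomal RNA early in the assembly of the large subunit. Its log2 signal was 8.63, 8.68, 8.51 and 8.37 in controls 641, 658, 661 and 663. In the Mfn1 LKO livers of mice 637, 638, 651 and 701 it was 8.87, 8.99, 8.95 and 9.03. The groups were apart, and the lowest mouse without hepatic Mfn1 was 637. The log2 fold change was 0.41 (SE 0.069, 95% interval 0.26 to 0.57, limma adjusted p = 0.187), a level 1.33-fold higher. The gene had a single probe.

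Mrpl52, a large subunit protein without a bacterial counterpart, had the second largest difference. Its log2 signal was 9.20, 9.33, 9.00 and 8.89 in the 4 controls, in the same order of mice, and 9.43, 9.49, 9.59 and 9.40 in the Mfn1 LKO livers. The log2 fold change was 0.37 (SE 0.093, 95% interval 0.16 to 0.58, limma adjusted p = 0.264). As with Mrpl20, control 663 was the lowest of all mice and control 661 the next.

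Mrps15 encodes the relative of bacterial S15, which binds the RNA of the small subunit. Its signal was 7.48, 7.40, 7.34 and 7.18 among controls, against 7.63, 7.64, 7.60 and 7.55 after the deletion, with a log2 fold change of 0.26 (SE 0.062, limma adjusted p = 0.251). The spread lay mainly in the controls, whose SD was 0.13 against 0.041 in Mfn1 LKO livers, and control 663 was again the lowest. Without control 663 the log2 fold change was 0.35 for Mrpl20, 0.30 for Mrpl52 and 0.20 for Mrps15.

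Mrps25, a small subunit protein of the mitochondrial lineage, gave 6.97, 6.95, 6.95 and 6.78 in controls and 6.99, 7.13, 7.02 and 7.09 in Mfn1 LKO livers. The groups were apart by a small margin, between control 641 and Mfn1 LKO mouse 637. Its log2 fold change was 0.14 (SE 0.053, limma adjusted p = 0.386). The other probes of Mrps25 past the filter, of like signal, gave -0.0058 and -0.0020, and the mean over its probes was 0.044, so the difference was seen by 1 probe of 3.

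**Figure D2:**
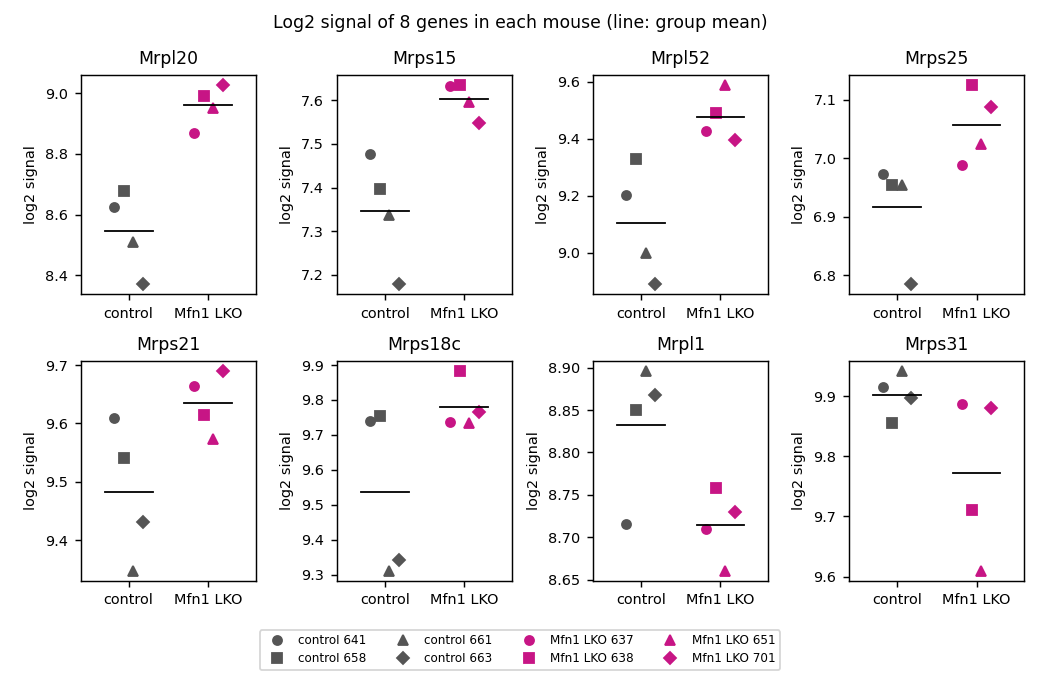
Log2 signal (vertical axis, not starting at 0) of 8 genes in each of the 4 control and 4 Mfn1 LKO mice, with 1 symbol per mouse and a line at the group mean. In the top row the groups do not overlap, and in Mrps18c control mice 661 and 663 (9.31 and 9.34) lie apart from all other mice.

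Among the other genes on the higher side, Mrps21, which encodes the relative of bacterial S21, gave 0.15 (SE 0.060, limma adjusted p = 0.398). Its groups overlapped, since control 641 reached 9.61 and Mfn1 LKO mouse 651 was at 9.57. Mrps18c encodes 1 of the 3 relatives of bacterial S18. Its signal was 9.74, 9.75, 9.31 and 9.34 in controls and 9.74, 9.88, 9.73 and 9.77 in Mfn1 LKO livers, so that controls 641 and 658 lay within the Mfn1 LKO range and controls 661 and 663 below it (log2 fold change 0.24, SE 0.11, adjusted p = 0.464). Its relatives Mrps18a and Mrps18b gave 0.045 and 0.031. The large subunit genes Mrpl16 (0.12), Mrpl30 (0.11), Mrpl13 (0.10) and Mrpl42 (0.081) completed the 10 genes with the smallest p on the higher side, with adjusted p-values from 0.477 to 0.538. Mrpl16 was 0.073 without Mfn1 LKO mouse 638. Mrpl16 encodes a relative of bacterial L16, a neighbour of the site of peptide bond formation.

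Mrpl13, which encodes the relative of bacterial L13, was read differently by its probes. The brightest gave 10.24, 10.30, 10.19 and 10.38 in controls and 10.40, 10.31, 10.41 and 10.40 in Mfn1 LKO livers. A dimmer probe gave 7.00, 7.00, 6.91 and 6.82 in controls and 7.22, 7.24, 7.21 and 7.27 in Mfn1 LKO livers, and here the groups did not overlap. Its log2 fold change was 0.30 (SE 0.042, limma adjusted p = 0.122 over all 25697 probes), and 0.41 after background correction. A further probe, at a signal of 6.53, gave 0.015. The mean of the 2 probes past the filter was 0.20 (SE 0.032, limma adjusted p = 0.174). In that setting Mrpl13, not Mrpl20, had the lowest adjusted p of the 70. The files do not say which part of the transcript each probe reads.

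On the lower side, Mrpl1, which encodes the relative of bacterial L1, a protein of the mobile stalk beside the exit site for transfer RNA, was the gene with an unadjusted p under 0.05. Its signal was 8.72, 8.85, 8.90 and 8.87 in controls and 8.71, 8.76, 8.66 and 8.73 in Mfn1 LKO livers (log2 fold change -0.12, SE 0.047, limma adjusted p = 0.408). Control 641 lay among the Mfn1 LKO mice, and the other 3 controls lay above them. A dimmer probe of Mrpl1, at 6.70, gave 0.024.

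Mrps30 (-0.099), Mrps31 (-0.13), Mrpl46 (-0.085), Mrpl49 (-0.070), Mrpl10 (-0.073), Mrpl9 (-0.16), Mrps22 (-0.073), Mrpl4 (-0.051) and Mrps27 (-0.065) followed, with adjusted p-values from 0.516 to 0.734. The 3 probes of Mrps31 past the filter went the same way, at -0.13, -0.13 and -0.079. Its signal was 9.89 and 9.88 in Mfn1 LKO mice 637 and 701, within the controls, and 9.71 and 9.61 in mice 638 and 651, below them. Several of these values depended on a single mouse. Mrps31 was -0.076 and Mrpl10 -0.037 without Mfn1 LKO mouse 651, Mrps27 -0.022 without mouse 701, Mrps22 -0.034 without control 658, Mrpl4 -0.023 without control 663 and Mrps30 -0.065 without control 661. Mrpl9 was -0.24 without Mfn1 LKO mouse 637 or control 663. With the mean of their probes, Mrpl1 was -0.047, Mrpl49 -0.028 and Mrpl10 -0.024. Mrpl10 encodes the base of the stalk that recruits translation factors, and Mrpl12, the stalk protein itself, gave -0.032 (SE 0.046). Mrpl4 encodes a relative of bacterial L4, which lines the tunnel for the growing peptide. Mrpl9 had the lowest log2 fold change of the 70 but a wide interval, -0.40 to 0.082, since both groups spread over about the same range (SD 0.18 in controls and 0.17 in Mfn1 LKO livers). At the ends of the signal range, Mrpl57 gave -0.039 and Mrps24 gave 0.033.

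The large and the small subunit genes did not part. Of 43 large subunit genes 23 were above 0, with a median log2 fold change of 0.0043, and of 27 small subunit genes 15 were above 0, with a median of 0.026. The median of all genes was -0.0090, and of these 44.8% were above 0. Averaged over the genes of each subunit in each mouse, large minus small was -0.016, -0.0074, 0.011 and 0.023 in controls 641, 658, 661 and 663. In the Mfn1 LKO group it was 0.0088, -0.016, 0.0026 and -0.0062 for mice 637, 638, 651 and 701. The groups overlapped, the control mean being 0.0026 ± 0.017 and the Mfn1 LKO mean -0.0026 ± 0.011 (SD, n = 4 each). No p is given, since the genes were chosen with results of these data known.

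Some symbols misplace their protein. Mrps30 and Mrps18a encode proteins that sit in the large subunit of the mammalian mitochondrial ribosome, and Mrps36, not measured past the filter, encodes a component of 2-oxoglutarate dehydrogenase. With the first 2 counted in the large subunit, the medians were 0.0043 and 0.026, as before, while the difference of the group means of large minus small went from -0.0052 to -0.012. It was 0.0051 with the mean of each gene's probes, all within the spread between mice. Grouped by origin, 44 genes with a bacterial relative had a median of 0.0097 with 24 above 0, and 25 genes of the mitochondrial lineage had a median of 0.0074 with 13 above 0. Mrpl58, which encodes a peptide release factor built into the large subunit, was put in neither and gave 0.0091 (SE 0.043).

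**Figure D3:**
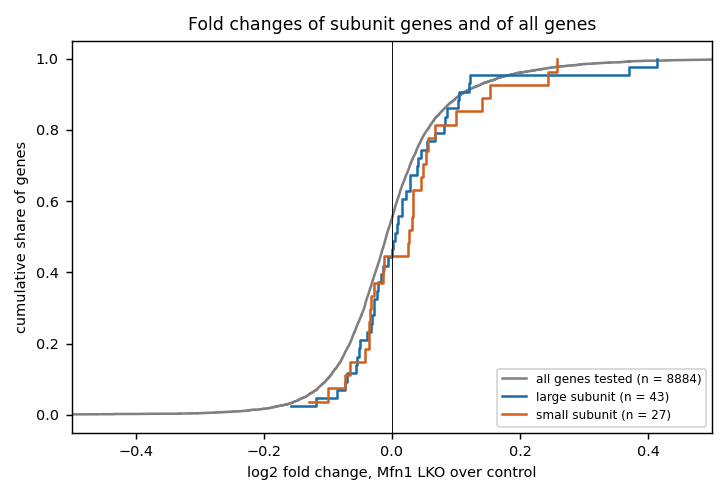
Cumulative share of genes (vertical axis) by log2 fold change, Mfn1 LKO over control (horizontal axis, shown from -0.5 to 0.5), for 43 large subunit genes, 27 small subunit genes and all 8884 genes tested. The 3 curves cross the middle near 0, at medians of 0.0043, 0.026 and -0.0090.

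Within the Mfn1 LKO group the mice spread more widely than the group means lay apart. The mean deviation over all 70 genes was 0.0069, -0.011, -0.029 and -0.013 for the controls in the order above, and 0.055, 0.011, -0.028 and 0.0086 for mice 637, 638, 651 and 701. The highest and nearly the lowest mean thus both came from Mfn1 LKO livers, and the SD was 0.034 in this group against 0.014 in controls, where the group means differed by 0.023. Mouse 637 had the highest signal of the 8 mice in 17 genes (24.3%, against 13.2% of all genes) and the lowest in 1 (1.43%, against 15.7%). Mouse 651 had the lowest signal in 22 genes (31.4%, against 15.5% of all genes). Both subunits took part, with means of 0.058 for the large and 0.049 for the small subunit in mouse 637, and of -0.027 and -0.030 in mouse 651. These mice were also highest and lowest for ribosomal proteins under other names (0.14 and -0.061) and ribosome assembly factors (0.054 and -0.038). Mouse 651 was lowest for mitochondrial translation factors (-0.059) and aminoacyl-tRNA synthetases (-0.034), where a control was highest. For mitochondrial DNA transcription and the nuclear regulators neither mouse was an extreme.

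The hepatocyte and stellate cell markers had both of their extremes in mice 637 and 651, and no other measured marker list did. The mean deviation of 5 hepatocyte markers was 0.14 in mouse 637, the highest, and -0.12 in mouse 651, the lowest. It lay between -0.064 and 0.040 in the other 6 mice. The 5 include Alb, close to the lowest signal, and Cps1, whose SD in Mfn1 LKO livers, 0.51, was the largest of the 5. The part of Cps1 alone in this mean was not tested. Stellate cell markers (5 measured) ran the other way from the hepatocyte markers, with -0.15 in mouse 637 and 0.18 in mouse 651. The mean of 10 measured of 13 listed markers of macrophages and Kupffer cells, the resident macrophages of the liver, was -0.19, 0.029, -0.20 and -0.26 in controls 641, 658, 661 and 663. It was -0.14, 0.039, 0.35 and 0.38 in mice 637, 638, 651 and 701. Mouse 701 was highest for macrophage markers, and its mean over the ribosomal genes was 0.0086. Controls 641, 661 and 663 lay below mouse 637 in the macrophage markers. All 10 macrophage markers were above 0 in Mfn1 LKO over control livers, with a median of 0.24. Over all genes, 44.8% were above 0. At a limma unadjusted p under 0.05, 6 of the 10 were higher and 0 lower, 60% against a background of 5.67% higher. None passed an adjusted p of 0.05. Vsig4 gave 0.52 (SE 0.15) with groups that did not overlap, and Adgre1 gave 0.66 (SE 0.20) with groups that did. Endothelial markers (5 measured) were lowest in mouse 638, at -0.085, and bile duct markers (2 measured) highest in mouse 701, at 0.050. Red cell markers (2 measured) gave -0.26 in mouse 637, -0.27 in mouse 651 and 0.47 in mouse 701, and no lymphocyte marker passed the filter. The part of these cells in the values of the ribosomal genes was not tested. Control 658 and Mfn1 LKO mouse 637 had macrophage marker means that lay toward those of the other group. Without both, 6 of the 70 genes were higher and 5 lower at a limma unadjusted p under 0.05. These are 15.7% of the 70 against 14.8% of all genes, and Mrpl20 kept the lowest adjusted p, 0.125. Leaving out these 2 mice sets the groups further apart in the macrophage markers. It therefore cannot show the part of those cells in these counts.

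**Figure D4:**
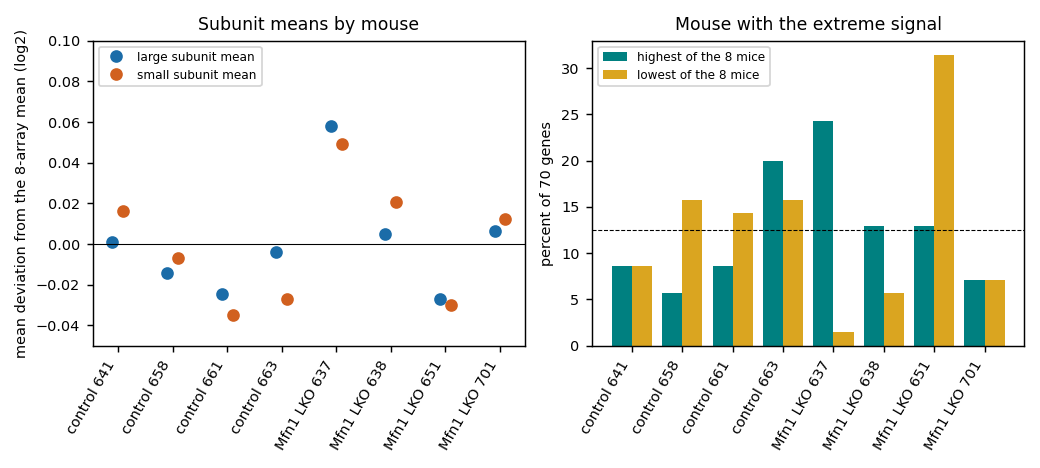
Left, mean deviation from the 8-array mean (log2, vertical axis) of 43 large and 27 small subunit genes in each mouse. Right, percent of the 70 genes in which each mouse had the highest or the lowest signal, with a dashed line at 12.5%, the share of 1 mouse in 8. Mouse 637 leads among the highest (24.3%) and mouse 651 among the lowest (31.4%).

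Mrpl47 lies close to the deleted gene, as number 3 among the measured genes after Mfn1 on chromosome 3. Before it come Gnb4, at -0.014, and Actl6a, at 0.20 (SE 0.049, limma adjusted p = 0.254). For Actl6a the groups did not overlap. The next after Mrpl47 is Ndufb5, which encodes a subunit of respiratory complex I. Mrpl47 and Ndufb5 start back to back, 308 bases apart, on opposite strands. Their promoter windows are printed with the 193 bases they share in capitals, each in the direction of its own gene, so that 1 is read as the reverse complement of the other there.
Mrpl47 promoter, chr3:32736706-32737005, - strand: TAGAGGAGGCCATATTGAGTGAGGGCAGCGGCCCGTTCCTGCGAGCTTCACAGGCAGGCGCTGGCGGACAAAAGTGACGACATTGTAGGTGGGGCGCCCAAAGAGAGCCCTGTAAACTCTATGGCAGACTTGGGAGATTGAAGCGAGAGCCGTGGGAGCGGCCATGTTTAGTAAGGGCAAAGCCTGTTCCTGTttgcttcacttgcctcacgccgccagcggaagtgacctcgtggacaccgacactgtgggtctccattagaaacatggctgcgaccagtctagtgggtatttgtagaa
Ndufb5 promoter, chr3:32736813-32737112, + strand: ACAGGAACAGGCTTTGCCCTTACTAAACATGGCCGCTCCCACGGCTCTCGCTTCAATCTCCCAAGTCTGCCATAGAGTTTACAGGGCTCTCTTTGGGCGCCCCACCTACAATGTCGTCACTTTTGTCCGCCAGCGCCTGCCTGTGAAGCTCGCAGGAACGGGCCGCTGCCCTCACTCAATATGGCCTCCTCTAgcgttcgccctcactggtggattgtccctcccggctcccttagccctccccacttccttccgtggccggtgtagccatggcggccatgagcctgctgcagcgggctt
Neither window holds a match to the 3 motifs above.

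Ndufb5 and Mrpl47 differed in their values although they share this stretch. The signal of Ndufb5 was 8.24, 8.31, 8.20 and 8.15 in controls and 8.65, 8.71, 8.74 and 8.55 in Mfn1 LKO livers, without overlap (log2 fold change 0.44, SE 0.052, limma adjusted p = 0.0665). The brightest probe of Mrpl47, a protein beside the exit of the peptide tunnel, gave 8.57, 8.59, 8.61 and 8.72 in controls and 8.65, 8.50, 8.47 and 8.64 in Mfn1 LKO livers, and the groups overlapped (-0.055, SE 0.055, 95% interval -0.18 to 0.069, adjusted p = 0.779). A dimmer probe of Mrpl47 gave 6.74, 6.74, 6.74 and 6.67 in controls and 6.90, 6.82, 6.79 and 6.82 in Mfn1 LKO livers. By this probe the groups did not overlap (0.11, SE 0.031, limma adjusted p = 0.354 over all probes), so the direction of Mrpl47 depends on the probe. The mean of its probes was 0.027.

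Back-to-back starts were common among these genes. RefSeq gave a promoter for 67 of the 76, and 25 of the 67 (37.3%) had a gene on the opposite strand starting within 1000 bases in the other direction, against 19% of the 7256 genes tested that have a promoter in the table. Among them Mrpl46 and Mrps11, a large and a small subunit gene, start 42 bases apart. The window of Mrps11 is printed because it holds both starts, and its capitals mark a YY1 match.
Mrps11 promoter, chr7:78782881-78783180, + strand: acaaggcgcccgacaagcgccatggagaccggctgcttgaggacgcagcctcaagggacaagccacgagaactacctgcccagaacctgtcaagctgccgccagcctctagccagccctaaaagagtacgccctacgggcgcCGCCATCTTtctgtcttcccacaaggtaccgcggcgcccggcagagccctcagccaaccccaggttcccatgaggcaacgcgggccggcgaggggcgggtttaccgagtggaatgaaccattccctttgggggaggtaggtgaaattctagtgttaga
Mrpl46 gave -0.085 (SE 0.045) and Mrps11 0.026 (SE 0.055).

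In 14 such pairs both genes were measured. The log2 fold changes of the partners differed by under 0.1 in 8 pairs and had the same sign in 6. Pairs of other genes were not compared. Over all genes the median log2 fold change without regard to sign was 0.048, so these counts do not set the pairs apart from other genes. Ndufb5 was the partner with an unadjusted p under 0.05, and its distance from Mrpl47, 0.50, was the widest of the 14 pairs. Next came Mrps18c, whose partner Helq, a DNA helicase gene, gave -0.076 (SE 0.046). Mrps12, which encodes a protein of the decoding centre, gave -0.013 beside -0.054 for Sars2, the mitochondrial seryl-tRNA synthetase, and Mrpl43 gave 0.067 beside -0.039 for Twnk, the helicase of mitochondrial DNA.

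**Figure D5:**
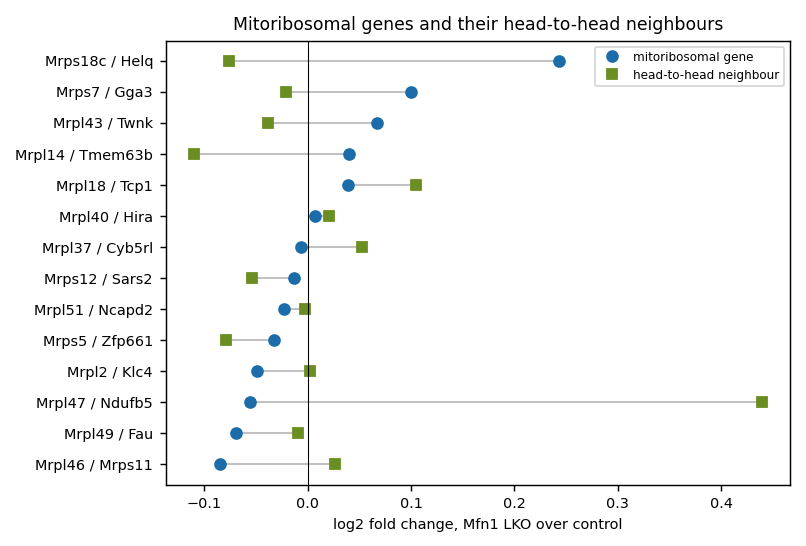
Log2 fold change, Mfn1 LKO over control (horizontal axis), of mitochondrial ribosomal protein genes (circles) and of the gene that starts back to back with each (squares), for 14 pairs (vertical axis, sorted). The partners lie between -0.11 and 0.10 except Ndufb5 at 0.44, beside Mrpl47 at -0.055.

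The motifs named above were frequent in the promoters of these genes. Of their 73 promoters, 26 (35.6%) held the ETS motif, 12 (16.4%) the NRF1 motif and 11 (15.1%) the YY1 motif, and 41 (56.2%) held at least 1. Over all 32851 promoters of the table the shares were 8.86%, 4.6%, 2.38% and 14.2%, and over the 9344 promoters of genes tested 16.8%, 9.48%, 4.76% and 27.3%. ETS and YY1 matches overlapped in 0 of the 73. The log2 fold changes differed little by motif, with a median of 0.012 in 38 measured genes with any match and of -0.022 in 24 without.

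Genes that serve the mitochondrial ribosome or mitochondrial DNA showed no called change either. The list of mitochondrial DNA transcription had 10 measured genes. It also holds genes for the replication of that DNA, Polg, Polg2, Twnk and Ssbp1. At an unadjusted p under 0.05, 3 genes were lower and 1, Ssbp1, higher, and the median log2 fold change of the list was -0.039. These 4 are 40% of the list, where the background was 10.8% in either direction, 5.11% lower and 5.67% higher. Polrmt, the RNA polymerase of mitochondria, gave -0.17 (SE 0.043) and Tefm, its elongation factor, -0.14 (SE 0.036), each with all Mfn1 LKO mice below all controls (limma adjusted p = 0.259 and 0.264). Mterf1a, of a family of termination factors, gave -0.089 and Ssbp1, the single-strand binding protein of mitochondrial DNA, 0.16, while Tfam, which packages that DNA, gave 0.014.

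Of 20 measured assembly factors, 8 were above 0 with a median of -0.012. Mtg1, a GTPase of large subunit assembly, gave 0.14 (SE 0.040, limma adjusted p = 0.272) with groups that did not overlap, the lone gene of that list with an unadjusted p under 0.05, and Noa1 gave -0.12. Of 12 translation factors 5 were above 0 with a median of -0.013, led by the initiation factor gene Mtif3 (-0.11) and Tufm, the elongation factor that delivers transfer RNA (-0.057). Of 15 mitochondrial aminoacyl-tRNA synthetase genes 8 were above 0 with a median of 0.0012, led by Fars2 (0.10) and Nars2 (-0.062). Ribosomal proteins under other names gave 0.078 (Gadd45gip1) and 0.11 (Ptcd3) as the leading 2 of 4. Of 6 measured regulators of nuclear genes for mitochondria 2 were above 0, with Ppargc1a at -0.11 and Ppargc1b at -0.13. In these 4 lists no gene had an unadjusted p under 0.05, where the background was 10.8%.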

How the data were processed

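Groups came from the sample titles, and no column of another sample was used. The authors deposited linear signal intensities and log2 values of the same 8 arrays. The log2 values lay within 0.0114 of the log2 intensities after quantile normalization, with no background taken off. How the authors scanned and summarised the beads is not given in the sources used here. Per the labels' protocols, Illumina's TotalPrep chemistry amplified RNA purified with magnetic beads.

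The deposited log2 values were used as they stand. Of 25697 probes, 23978 carried 1 symbol in GEO's platform annotation, none several, and 1719 are unnamed here. All 110 probes described matched RefSeq (GRCm38.p6) by gene ID. Probes with a mean over the 8 arrays above the median of such means (6.64) were kept, and the brightest probe stood for a gene, for 8884 genes in all. Tests were two-sided, by lmFit and eBayes of limma 3.58.1 in R 4.3.3, and p-values were adjusted by Benjamini and Hochberg's method over all genes, at a threshold of 0.05. Other probes come from the same fit over all probes. The test was tried on simulated data. A list mean by mouse averages log2 values centred on each gene's mean.

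The members, lists and tests were chosen with earlier results of these data known, and the bacterial and mitochondrial classes, the promoter motifs and the back-to-back pairs after the values were seen. Named genes were the 10 on each side with the smallest p, Mrpl47, the ends of the signal range, and 2 genes of each other list. Others were named after their values were seen. Alternatives were background correction (normexp, offset 50) with quantile normalization of the intensities, a common median, no filter, a filter on 4 of 8 arrays, the mean of probes, trend and robust estimation, another assignment to subunits, each mouse left out, and 2 mice left out together, the last chosen after seeing the data. Promoters were searched in Python 3.11.15 and plots made in matplotlib 3.10.9.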

Additional observations from a re-analysis of the deposited data

Results flagged for a closer look

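In 6 of 56 groups of 4 values tested, 1 mouse lay far from the others of its group by Dixon's criterion. The nominal rate of this criterion is about 1 in 20 for independent groups. These groups come from the same mice and are not independent. The share flagged among all genes tested is not given here, so the count does not show an excess. Mrps25 was low in control 663, at 6.78 where the next control was at 6.95. Mrpl13 was low in Mfn1 LKO mouse 638, at 10.31 where the next was at 10.40. Mfn1 LKO mouse 637 was high for Mrps30, at 9.52 against 9.42, and for Mrpl49, at 9.52 against 9.40. Control 641 was high for Mrps27, at 7.49 against 7.37, and control 663 was high for Mrps24, at 11.31 against 11.25.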

How the results depend on the processing

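No mitochondrial ribosomal gene passed the adjusted threshold under any of the 6 other settings, with any mouse left out, or without control 658 and Mfn1 LKO mouse 637 together, and the log2 fold change of Mrpl20 lay between 0.35 and 0.49 in all of these (adjusted p from 0.125 to 0.591). Mfn1 passed in all of them, between -1.54 and -1.31 under other settings and between -1.36 and -1.29 with a mouse left out. At an unadjusted p under 0.05, the higher genes numbered 10 and the lower 3 with no filter (17.1% against 8.33% of all genes), and the lower 0 with a common median (5 genes in all, 7.14% against 5.01%), with the mean of probes and with trend and robust estimation, and 5 without control 658 and Mfn1 LKO mouse 637 together. The shares were 7.14% against 10.4% of all genes with the mean of probes, and 8.57% against 10.1% with trend and robust estimation. With 1 mouse left out the higher genes numbered 4 to 8 and the lower 0 to 6. Their share then ran from 5.71% without control 661 to 15.7% without Mfn1 LKO mouse 637. In these 2 settings it was 6.98% and 12.5% of all genes. The large subunit median lay between -0.020 and 0.025, the small subunit median between 0.012 and 0.034, and large minus small between -0.011 and 0.0015 with a mouse left out, and large minus small between -0.012 and 0.0051 under the other settings. By design, log2 fold changes of named genes are the same with no filter, a filter on 4 of 8 arrays, or trend and robust estimation. Their direction could not change there, nor with the mean of probes for genes with 1 kept probe, such as Mrpl20. The count that follows includes these values. Of 360 values of 24 named genes under 15 alternatives, 358 kept their direction and side of the threshold. The other 2 changed sign, Mrpl47 at 0.027 with the mean of its probes and Mrps24 at -0.0025 without Mfn1 LKO mouse 651 (up to 0.061 without mouse 638), and the cause was not tested beyond the opposite sign of the dimmer Mrpl47 probe. The median over all genes was -0.0090, and -0.000085 with arrays set to a common median. No paired analysis was possible because the groups share no replicate number. Signals near 6.4, the lowest of the arrays, carry little information on transcript.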

Other observations

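Where several probes of a gene passed the filter, they did not all go the same way. Of 20 such genes, 8 had probes of 1 sign, and in 15 the probes lay within 0.1 of each other on the log2 scale. The widest gaps were 0.20 for Mrpl13, 0.17 for Mrpl47, 0.15 for Mrps25, 0.14 for Mrpl1 and 0.13 for Mrpl43, whose probes gave 0.067 and -0.061. The probes of Mrpl33 were closest, at -0.032 and -0.027.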
